A study of Arabidopsis thaliana with 12 samples.

Results

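The nuclear genes that encode the photosystems and their light-harvesting antennas were followed in 12 RNA-seq libraries of Arabidopsis thaliana shoots. There are 41 such genes among the 25089 loci in the files: 6 LHCA genes, 14 LHCB genes, 12 PSA genes and 9 PSB genes. They were taken from a fixed list of loci, and each was read through 1 transcript, the one with the highest mean over the 12 libraries. All 41 passed the filter on low values. The plants fall into 4 genotypes with 3 libraries each. SOB3-D is labelled an AHL overexpressor. The line sob3-6 is labelled a dominant-negative ahl mutant. The triple mutant pif4 pif5 pif7 carries the loss-of-function alleles pif4-101, pif5(pil6-1) and pif7-1. Col-0 is the wild type. The ecotype of all 12 samples is Columbia, and the labels name no promoter or transgene and do not say how many plants were pooled. All plants were 14 days old and had grown on sucrose-free medium in long days. The shoot was cut off through the hypocotyl at ZT4, where ZT counts hours from lights on.

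Photosystem II takes electrons from water and passes them through the cytochrome complex and plastocyanin to photosystem I, which reduces ferredoxin. The reaction centre proteins are made in the chloroplast, while the antennas and many peripheral subunits are encoded in the nucleus and imported. LHCB proteins bind chlorophyll for photosystem II and LHCA proteins for photosystem I. PIFs are phytochrome-interacting transcription factors that bind the G-box CACGTG and hold back greening in the dark. AHL proteins bind AT-rich DNA through an AT-hook, and SOB3 is an AHL gene whose overexpression shortens hypocotyls.

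The deposited value of a transcript is given in ppm, tags scaled to the mapped total, and in each library all values are multiples of what 1 read is worth. Depth by that measure was 7637822 to 8877404 reads in SOB3-D, 10179924 to 12567173 in sob3-6, 13809707 to 14734732 in pif4 pif5 pif7 and 14488308 to 16075498 in Col-0. SOB3 was at 180.1 to 205.8 ppm in SOB3-D and 217.5 to 232.3 ppm in sob3-6, against at most 0.312 ppm in Col-0. In pif4 pif5 pif7 libraries PIF4 was at 72.8 to 81.8 ppm, PIF5 at 16.6 to 21.0 ppm and PIF7 at 5.97 to 7.15 ppm, against 132.1 to 142.7, 190.6 to 195.6 and 44.3 to 46.8 ppm in Col-0. Levels of 10 root marker genes summed to 2.95 to 5.09 ppm over the 12 libraries and those of 6 leaf marker genes to 42636 to 56428 ppm, with the root gene EXPA7 at 0 throughout. No library went against its label in these genes. These are bulk samples, so fewer cells of a type and less RNA per cell cannot be told apart.

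The promoters of 3 genes on which the results turn are given first, as the 250 bases before the annotated gene start in TAIR10.1 (RefSeq), read 5′ to 3′ on the strand of the gene. LHCB1.3 (AT1G29930) had the highest level of the 41 genes, LHCB2.1 (AT2G05100) had one of the clearest increases in SOB3-D, and LHCB4.3 (AT2G40100) was the one gene with a clear decrease in sob3-6. Capitals mark the G-box CACGTG, the I-box GATAAG, the clock-linked letters AAAAATCT and AAAATATCT, and CCAATC, on either strand. None of these motifs lies within another. The windows are chr1:10477635-10477884 on the plus strand for LHCB1.3, chr2:1824481-1824730 on the minus strand for LHCB2.1 and chr2:16745378-16745627 on the plus strand for LHCB4.3. No other annotated gene reaches into these 3 windows.
LHCB1.3: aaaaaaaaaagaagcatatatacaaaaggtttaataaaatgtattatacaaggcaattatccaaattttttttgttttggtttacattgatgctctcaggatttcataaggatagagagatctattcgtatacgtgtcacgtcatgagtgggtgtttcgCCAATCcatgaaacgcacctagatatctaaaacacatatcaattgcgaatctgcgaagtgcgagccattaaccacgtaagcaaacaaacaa
LHCB2.1: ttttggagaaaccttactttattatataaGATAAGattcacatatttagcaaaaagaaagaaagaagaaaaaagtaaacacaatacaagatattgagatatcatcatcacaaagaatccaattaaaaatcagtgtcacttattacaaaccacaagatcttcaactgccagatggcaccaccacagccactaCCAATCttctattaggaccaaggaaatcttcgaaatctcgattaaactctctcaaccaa
LHCB4.3: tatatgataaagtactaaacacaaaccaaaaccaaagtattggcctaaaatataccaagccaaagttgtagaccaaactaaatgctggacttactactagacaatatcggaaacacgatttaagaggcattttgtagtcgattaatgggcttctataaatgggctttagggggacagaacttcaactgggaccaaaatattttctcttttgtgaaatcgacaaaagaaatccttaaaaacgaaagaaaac

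The G-box is shown separately because it is the letters that PIF proteins bind and 1 of the genotypes carries loss-of-function alleles of 3 PIF genes. It occurred 11 times in the windows of 8 of the 41 genes, which are LHCA4, LHCB2.4, LHCB4.1, LHCB6, PSAE2, PSAH2, PSBQ1 and PSBQ2. Short stretches around it, with the hexamer in capitals, follow for PSBQ1, its partner PSBQ2, and PSAE2, the gene with the lowest p in SOB3-D. With the ppm as deposited PSBQ1 was the one gene called higher in pif4 pif5 pif7. After scaling of the libraries LHCA6 and LHCB6 were called too. The stretches lie at chr4:11334257-11334286 and chr4:11334285-11334314 (plus strand), chr4:2673371-2673400 and chr4:2673303-2673332 (minus strand) and chr2:8736659-8736688 (plus strand). The gene AT4G21270 reaches into the PSBQ1 window and AT2G20250 into the PSAE2 window, but no other annotated gene reaches into these stretches.
PSBQ1 first: aaataatcttgcCACGTGgctttaaggcgg
PSBQ1 second: ggacaaaaatgaCACGTGgttttatatgag
PSBQ2 first: acgtcattcagcCACGTGacaatcgcattc
PSBQ2 second: gaatcaagaaacCACGTGtcaacatattag
PSAE2: gatatgtgatcaCACGTGtcatatcacaag

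Over all 41 genes the G-box was present in 19.5% of windows, against 6.49% of the 27443 windows of protein-coding genes. CCAATC was present in 26.8%, against 10.2%, and GATAAG in 22.0%, against 12.3%. AAAAATCT was present in 12.2% against 6.69%, AAAATATCT in 2.44% against 2.36% and the TATA letters TATAAA in 46.3% against 47.3%. A match only says that the letters are in the window.

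The 41 genes were among the most abundant transcripts of these shoots. By mean ppm, 36 of them ranked in the top 100 of the 18502 tested genes and their median rank was 32. Together they held 16.4 to 17.6% of the summed signal of all representative transcripts in SOB3-D, 15.0 to 15.4% in sob3-6, 15.5 to 15.9% in pif4 pif5 pif7 and 14.5 to 15.8% in Col-0. The 4 outside the top 200 were PSAE2, LHCA6, LHCA5 and LHCB4.3. For 39 of the 41 genes the highest of 12 libraries was under 1.5 times the lowest.

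Per length, genes of the major trimeric antenna LHCB1 led, except LHCB1.4, which averaged 5346 ppm over the 12 libraries on a transcript of 1312 bases. LHCB1.3 averaged 18739 ± 1263 ppm per kb in SOB3-D, 15023 ± 505 in sob3-6, 16728 ± 428 in pif4 pif5 pif7 and 15727 ± 1046 in Col-0 (SD, n = 3 each). LHCB1.5, LHCB1.1 and LHCB1.2 lay between 8755 and 13019 ppm per kb in the 4 genotype means. PSBR, a small lumenal subunit of photosystem II, had the highest level per length of the core genes at 4928 to 5572 ppm per kb. LHCA5 and LHCA6, the minor antennas that link photosystem I to the NADH dehydrogenase-like complex, stood at 144.1 to 168.0 ppm per kb. LHCB4.3, a form of the monomeric antenna CP29 known from strong light, was lowest at 6.82 to 16.4 ppm per kb. The other LHCB4 genes, LHCB4.1 and LHCB4.2, lay at 1622 to 2405 ppm per kb.

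**Figure D1:**
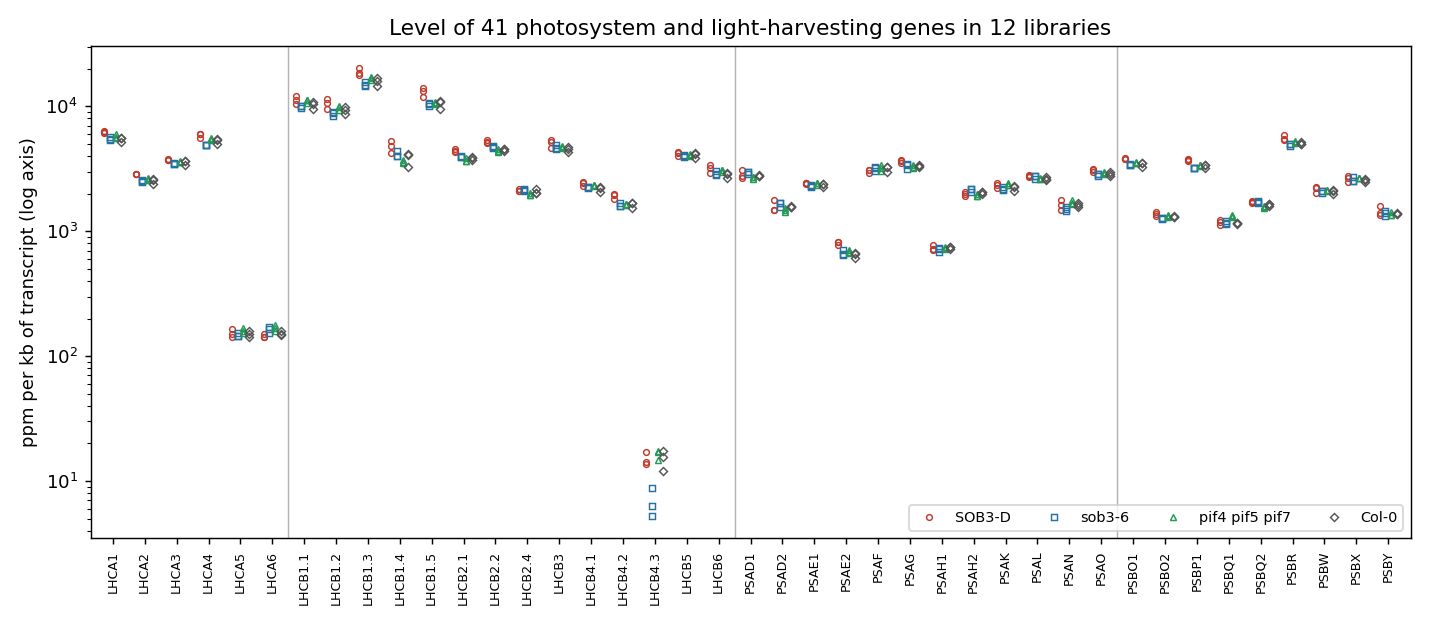
Level of each of the 41 genes in ppm per kb of transcript on a log axis, with 1 point per library and the genotypes SOB3-D, sob3-6, pif4 pif5 pif7 and Col-0 from left to right within each gene. The genes are set in the order LHCA, LHCB, PSA and PSB, divided by grey lines. LHCB1.3 lies at the top and LHCB4.3 at the bottom, where the 3 sob3-6 libraries sit below the other 9.

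Some of these values are shared between genes. LHCB1.1, LHCB1.2 and LHCB1.3 lie near each other on chromosome 1 between 10472280 and 10479114, LHCB1.4 and LHCB1.5 on chromosome 2 between 14522524 and 14525918, and LHCB2.1 and LHCB2.2 on chromosome 2 between 1799234 and 1824480 (TAIR10.1). Of the 50-base words in their transcripts, 10.6 to 28.2% occur in another of the 41 genes, while the other 34 genes share none. The level of any 1 of these 7 genes is therefore uncertain. If a read counts in every transcript it matches, sums that include these genes count shared reads more than once. That limit holds for the LHCB sums, the sums of all 41 genes, ratios of such sums, and the share of signal given above. In the annotation 16 of the 41 genes also overlap a gene on the opposite strand, and no source used here says whether strand was used in counting. PSAH1 overlaps such a gene over 788 bases and LHCB1.5 over its whole length of 1045 bases.

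Changes were tested with limma on log2(ppm + 1) over all kept transcripts, with Benjamini-Hochberg adjustment over all of them. The threshold for a call was 0.05 on the adjusted p, and every adjusted p below is from that limma fit. Counts at an unadjusted p under 0.05 are given without a share of all genes, which was not computed at that cutoff. All 4 comparisons were made with the ppm as deposited and again after dividing each library by its median-of-ratios factor, which was 1.04 to 1.05 in sob3-6, 0.982 to 0.992 in SOB3-D, 0.965 to 0.976 in pif4 pif5 pif7 and 0.994 to 1.01 in Col-0. The comparisons with Col-0 share the same 3 Col-0 libraries. Whether the libraries of a genotype stem from separate sowings is not labelled, and the p-values then reflect only their spread, which may be technical.

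In SOB3-D 17 of the 41 genes rose against Col-0 and 0 fell with the ppm as deposited, and 20 rose and 0 fell after median-of-ratios scaling. Of all 18502 tested genes 11.6% were called higher and 14.9% lower with the ppm as deposited, and 12.9% and 13.2% after scaling. All 17 genes called with the ppm as deposited were also called after scaling. At an unadjusted p under 0.05 in limma, 0 of the 41 were lower under either scaling, and edgeR and DESeq2 on the recovered reads called 19 higher and 0 lower. Of all 18502 genes edgeR called 2336 higher and 2284 lower, and DESeq2 called 1747 and 1685. The 3 SOB3-D libraries lay above all 3 Col-0 libraries for 20 of the 41 genes and below for 0, against 16.9% and 21.0% of all genes. The median log2 change of the 41 was 0.07, against -0.02 over all genes, and 0.09 against -0.00 after scaling. The largest change was 1.25-fold. Quantile normalization, which sets the libraries to 1 common distribution, called 8 higher and 1 lower, where 26.0% of all genes were called in either direction.

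**Figure D2:**
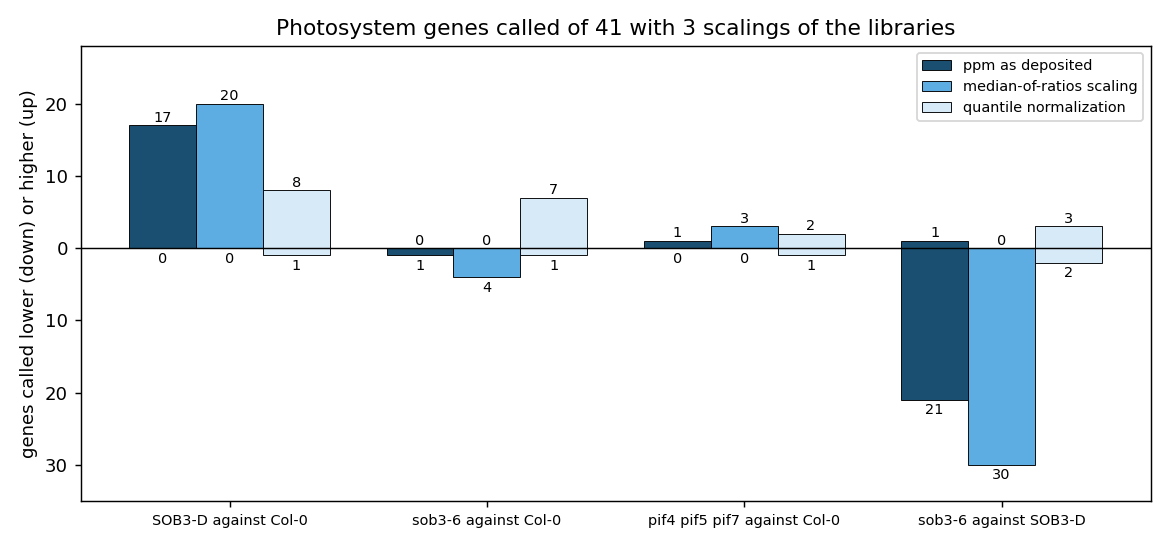
Number of the 41 genes called higher (bars up) or lower (bars down) in each comparison with 3 scalings of the libraries. SOB3-D shows 17, 20 and 8 genes higher, and sob3-6 against SOB3-D shows 21, 30 and 2 genes lower. These counts shrink under quantile normalization, while some others grow, such as the genes higher in sob3-6 than in Col-0.

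By family, of the 14 LHCB genes 9 rose (11 after scaling), with a median log2 change of 0.18, and 3 of the 6 LHCA genes rose, with a median of 0.11. Of the 12 PSA genes 2 rose (3 after scaling), with a median of 0.03, and of the 9 PSB genes 3 rose, with a median of 0.07. Of all tested genes 11.6% were called higher, and 12.9% after scaling. With the ppm as deposited the PSA count was near that share. The 20 antenna genes summed to 2.60, 2.41 and 2.75 times the sum of the 21 PSA and PSB genes in SOB3-D, against 2.29, 2.39 and 2.46 times in Col-0. The groups overlapped (exact two-sided permutation p = 0.2). With 3 libraries against 3 that test cannot give a p under 0.1, so it could not decide whether the antennas changed more than the cores.

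LHCB1.3, which encodes the major antenna protein of photosystem II, measured 22712, 21692 and 24742 ppm in SOB3-D, against 17971, 19539 and 20522 ppm in Col-0. The groups did not overlap, and LHCB1.3 rose by 0.25 on the log2 scale (SE 0.05, adjusted p = 0.00030). LHCB1.5 rose by 0.32 (SE 0.06, adjusted p = 0.00036) and LHCB1.2 by 0.18 (SE 0.06, adjusted p = 0.023), while LHCB1.1 at 0.13 (adjusted p = 0.051) and LHCB1.4 at 0.32 (SE 0.10, adjusted p = 0.052) were called only after scaling. Summed over the 5 LHCB1 genes, the level was 70374, 65043 and 75939 ppm in SOB3-D, against 55393, 61148 and 63561 ppm in Col-0, again with no overlap. LHCB1.2 and LHCB3 were called although their libraries overlapped those of Col-0.

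LHCB2, the other major trimer protein, which is phosphorylated in state transitions, moved through 2 of its 3 genes. LHCB2.1 was at 6163, 5994 and 6416 ppm in SOB3-D, against 5173, 5479 and 5415 ppm in Col-0, and LHCB2.2 at 5938, 5822 and 6117 ppm, against 5015, 5237 and 5241 ppm. Both rose by 0.21 (adjusted p = 8.4e-05 and 6.8e-05), and their sequences overlap, so they are not independent. LHCB2.4, named LHCB2.3 in the annotation, averaged 2481 ± 50.2 ppm in SOB3-D and 2428 ± 92.3 ppm in Col-0 (adjusted p = 0.60). The ratio of LHCB2.1 to LHCB2.4, in which any scaling factor cancels, was 2.53, 2.36 and 2.60 in SOB3-D, against 2.19, 2.16 and 2.27 in Col-0.

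Among the antennas present as single copies or monomers, LHCB4.2, a CP29 gene, was at 2483, 2334 and 2528 ppm in SOB3-D, against 1965, 2162 and 2146 ppm in Col-0, and rose by 0.23 (adjusted p = 0.00013). LHCB4.1, the other abundant CP29 gene, rose by 0.14 (adjusted p = 0.011). LHCB6, which encodes CP24, rose by 0.18 (adjusted p = 0.0033), and LHCB3, the third trimer protein, by 0.16 (adjusted p = 0.013). LHCB5, which encodes CP26, was 5819 ± 251 ppm in SOB3-D and 5660 ± 281 ppm in Col-0 (adjusted p = 0.51), and LHCB4.3 averaged 19.7 ± 2.35 and 19.8 ± 3.48 ppm. On the photosystem I side LHCA1 rose by 0.19 (adjusted p = 0.00046), LHCA2 by 0.18 (adjusted p = 0.00053) and LHCA4 by 0.14 (adjusted p = 0.0065). LHCA3 had a log2 change of 0.07 (adjusted p = 0.15), LHCA5 of 0.01 and LHCA6 of -0.08.

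**Figure D3:**
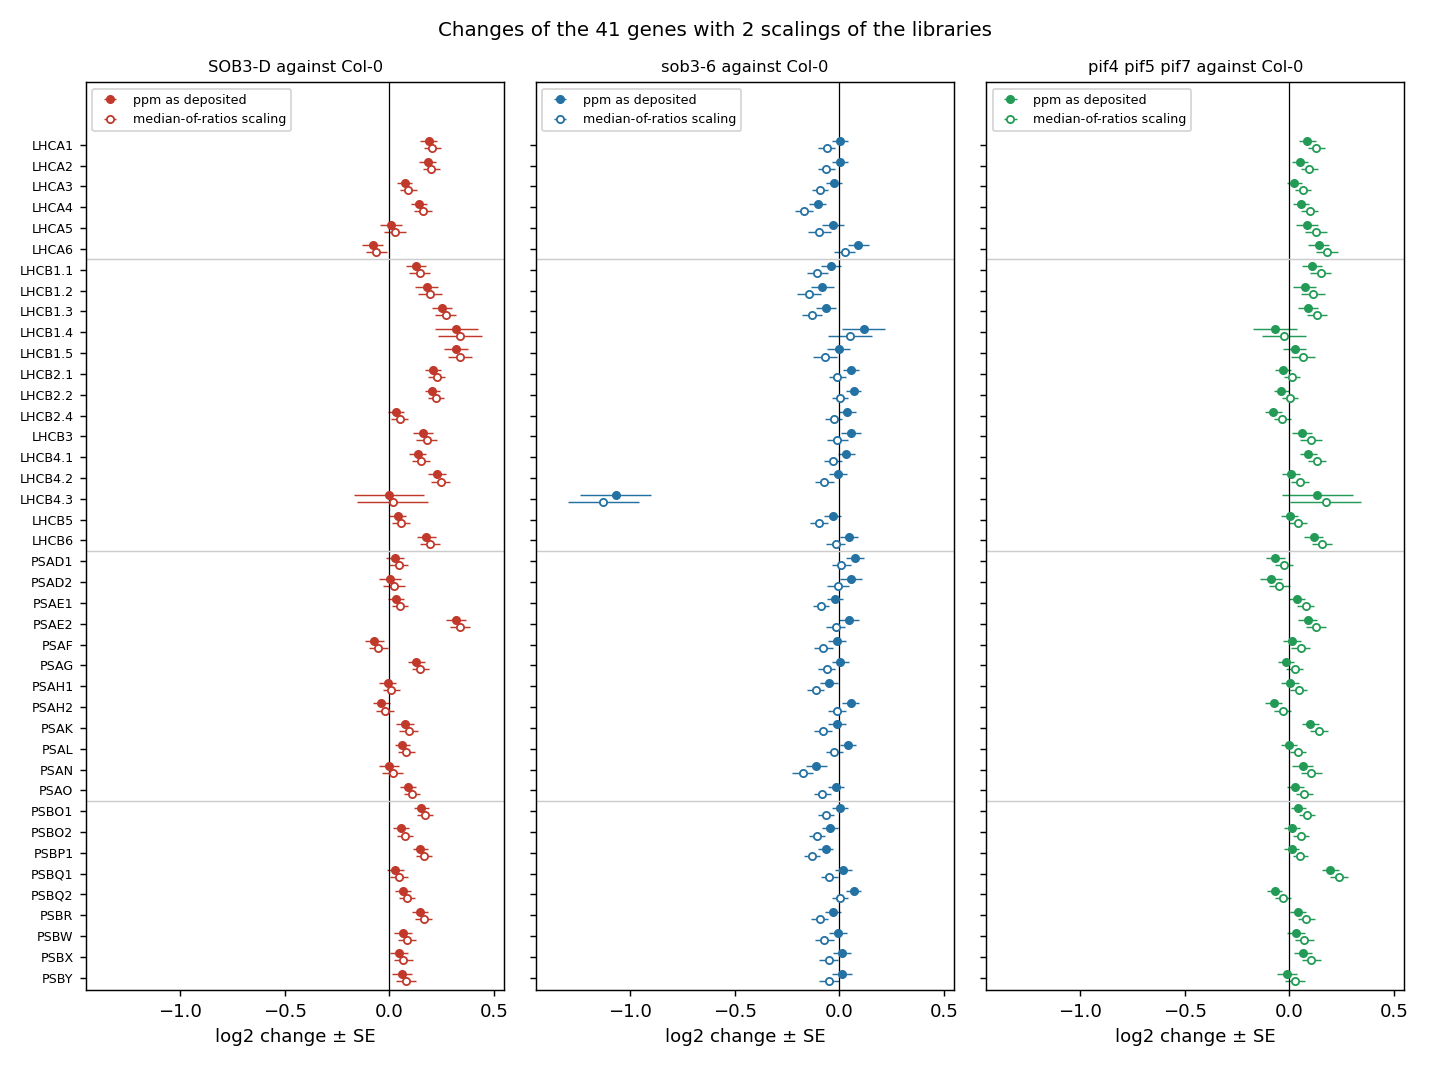
Log2 change with its standard error for each of the 41 genes in SOB3-D, sob3-6 and pif4 pif5 pif7, each against Col-0, with the ppm as deposited (filled) and after median-of-ratios scaling (open). Scaling moves all points of a panel by about the same amount, up in SOB3-D and in pif4 pif5 pif7 and down in sob3-6. LHCB4.3 in sob3-6 stands far to the left of the other genes.

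Of the core subunits, PSAE2 had the lowest p of the 41 genes in SOB3-D. PSAE proteins sit on the stromal face of photosystem I, where ferredoxin docks. PSAE2 was at 494.5, 471.0 and 500.4 ppm in SOB3-D, against 368.9, 405.3 and 400.5 ppm in Col-0, and rose by 0.32 (SE 0.05, adjusted p = 4.5e-06). Its more abundant partner PSAE1 averaged 1916 ± 15.2 ppm in SOB3-D and 1873 ± 56.7 ppm in Col-0 (adjusted p = 0.58). PSAG, a peripheral membrane subunit of photosystem I, rose by 0.13 (adjusted p = 0.014), and PSAO, a subunit near the docking site of mobile antennas, was called only after scaling (0.11, adjusted p = 0.046).

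PSAD1 and PSAD2, which encode another ferredoxin docking subunit, had log2 changes of 0.03 and 0.01. PSAH1 and PSAH2, whose product is needed for state transitions, had log2 changes of -0.01 and -0.04. PSAF, the plastocyanin docking subunit, had -0.07, and PSAK, PSAL and PSAN had 0.07, 0.06 and -0.00. None of these 8 was called under either scaling. In photosystem II the oxygen-evolving proteins PSBO1 and PSBP1 both rose by 0.15 (adjusted p = 0.0022 and 0.0020), as did PSBR by 0.15 (adjusted p = 0.0050). PSBP1 was at 4995, 4951 and 5083 ppm in SOB3-D, against 4366, 4595 and 4594 ppm in Col-0. PSBO2, PSBQ1, PSBQ2, PSBW, PSBX and PSBY had log2 changes of 0.03 to 0.07 and were not called.

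One library of Col-0 and one of SOB3-D bear on these counts. Col-0 replicate 1 had the lowest of the 3 Col-0 values for 32 of the 41 genes, and without it 12 genes rose in SOB3-D (14 after scaling). LHCA4, LHCB1.2, LHCB3, LHCB4.1 and PSAG were the 5 calls lost. SOB3-D replicate 2 had the lowest SOB3-D value for 26 genes, and without it 21 genes rose (22 after scaling).

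In sob3-6 LHCB4.3 fell and the other 40 genes were not called with the ppm as deposited. That is 0 higher and 1 lower of 41, against 9.43% and 3.95% of all tested genes. After median-of-ratios scaling 0 were higher and 4 lower, against 4.37% and 6.77%. At an unadjusted p under 0.05, 0 genes were higher under either scaling, 3 were lower with the ppm as deposited and 13 were lower after scaling. No share of all genes was computed at that cutoff, so these counts have no reference. edgeR and DESeq2, which scale libraries themselves, each called 0 higher and 4 lower. Of all 18502 genes edgeR called 1019 higher and 1366 lower, and DESeq2 called 499 and 969. The median log2 change of the 41 was 0.00, against 0.06 over all genes, with the ppm as deposited, and -0.06, against 0.00 over all genes, after scaling. So 21 changes were positive and 20 negative before scaling, and 5 and 36 after it. Libraries stood above those of Col-0 for 4 genes and below for 5, against 24.4% and 8.84% of all genes, and for 0 and 8 after scaling, against 14.5% and 15.6%. Quantile normalization called 7 higher and 1 lower, where 10.4% of all genes were called in either direction, so that a direction for the group as a whole depends on the scaling.

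LHCB4.3 was at 8.335, 11.69 and 7.002 ppm in the sob3-6 libraries, against 22.83, 20.63 and 16.01 ppm in Col-0. The 3 sob3-6 values rest on 104, 119 and 88 reads, and all lie below every Col-0 value. The gene fell by 1.07 on the log2 scale (SE 0.17, adjusted p = 0.0016), and by 1.13 after scaling (adjusted p = 0.0012). Its second annotated transcript had a log2 change of -1.05. LHCB4.1 averaged 3125 ± 12.6 ppm in sob3-6 and 3056 ± 150 ppm in Col-0, and LHCB4.2 averaged 2080 ± 63.9 and 2091 ± 109 ppm, so LHCB4.3 made up a minute part of CP29 transcript in every genotype. The ratio of LHCB4.3 to LHCB4.1 averaged 0.00288 in sob3-6 and 0.00652 in Col-0.

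The 3 genes that joined LHCB4.3 after scaling came from different parts of the photosystems. LHCA4, an antenna of photosystem I, was at 6369, 6281 and 6374 ppm in sob3-6, against 6430, 7032 and 6995 ppm in Col-0, a log2 change of -0.10 as deposited (adjusted p = 0.077) and -0.17 after scaling (adjusted p = 0.0074). PSAN, a lumenal subunit of photosystem I, changed by -0.11 (adjusted p = 0.14) and -0.17 (adjusted p = 0.023). PSBP1 changed by -0.06 (adjusted p = 0.24) and -0.13 (adjusted p = 0.024). These 3 calls depended on which Col-0 library was used: the scaled count of lower genes was 9 without Col-0 replicate 1, and 1 when Col-0 replicate 2 or 3 was left out. It was also 7 without SOB3-D replicate 2, and 2 without sob3-6 replicate 2 or without sob3-6 replicate 3. The scaling factors were kept from all 12 libraries, so leaving out a SOB3-D library acted here only through the shared spread.

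In pif4 pif5 pif7 PSBQ1 rose and the other 40 genes were not called with the ppm as deposited. That is 1 higher and 0 lower of 41, against 1.50% and 4.83% of all genes. After median-of-ratios scaling 3 were higher and 0 lower, against 2.88% and 3.08%. At an unadjusted p under 0.05, 7 genes were higher with the ppm as deposited and 15 after scaling, with 0 lower under either. These counts too lack a reference, since no share of all genes was computed at that cutoff. edgeR called 3 higher and 0 lower, and DESeq2 called 2 and 0. Of all 18502 genes edgeR called 688 higher and 729 lower, and DESeq2 called 480 and 466. The median log2 change was 0.03, against -0.04 over all genes, and 0.07 against 0.00 after scaling. Libraries stood above those of Col-0 for 7 genes and below for 5, against 8.52% and 18.5% of all genes. After scaling the counts were 20 and 0, against 13.3% and 12.6%. Quantile normalization called 2 higher and 1 lower, where 5.20% of all genes were called in either direction.

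PSBQ1 encodes a small extrinsic protein of the oxygen-evolving complex, and its window holds a pair of G-boxes as shown above. It was at 1317, 1350 and 1285 ppm in pif4 pif5 pif7, against 1149, 1166 and 1136 ppm in Col-0. The groups did not overlap, and PSBQ1 rose by 0.20 (SE 0.04, adjusted p = 0.0032), and by 0.24 after scaling (adjusted p = 0.00067). Its partner PSBQ2, whose window also holds G-boxes, was at 1754, 1798 and 1828 ppm in pif4 pif5 pif7, against 1848, 1903 and 1900 ppm in Col-0 (log2 change -0.07, adjusted p = 0.30), again without overlap. Of the other 6 genes with a G-box, LHCB6 was called after scaling (0.16, adjusted p = 0.045, and 0.12 as deposited, adjusted p = 0.13) and the rest were not called. LHCA6 was also called after scaling (0.18, adjusted p = 0.032), with 195.2, 204.8 and 185.5 ppm in pif4 pif5 pif7 against 173.8, 184.6 and 172.6 ppm in Col-0. The scaled count of higher genes was 1 when Col-0 replicate 1 or 3 or pif4 pif5 pif7 replicate 1 or 2 was left out, 5 without Col-0 replicate 2 and 7 without SOB3-D replicate 2.

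**Figure D4:**
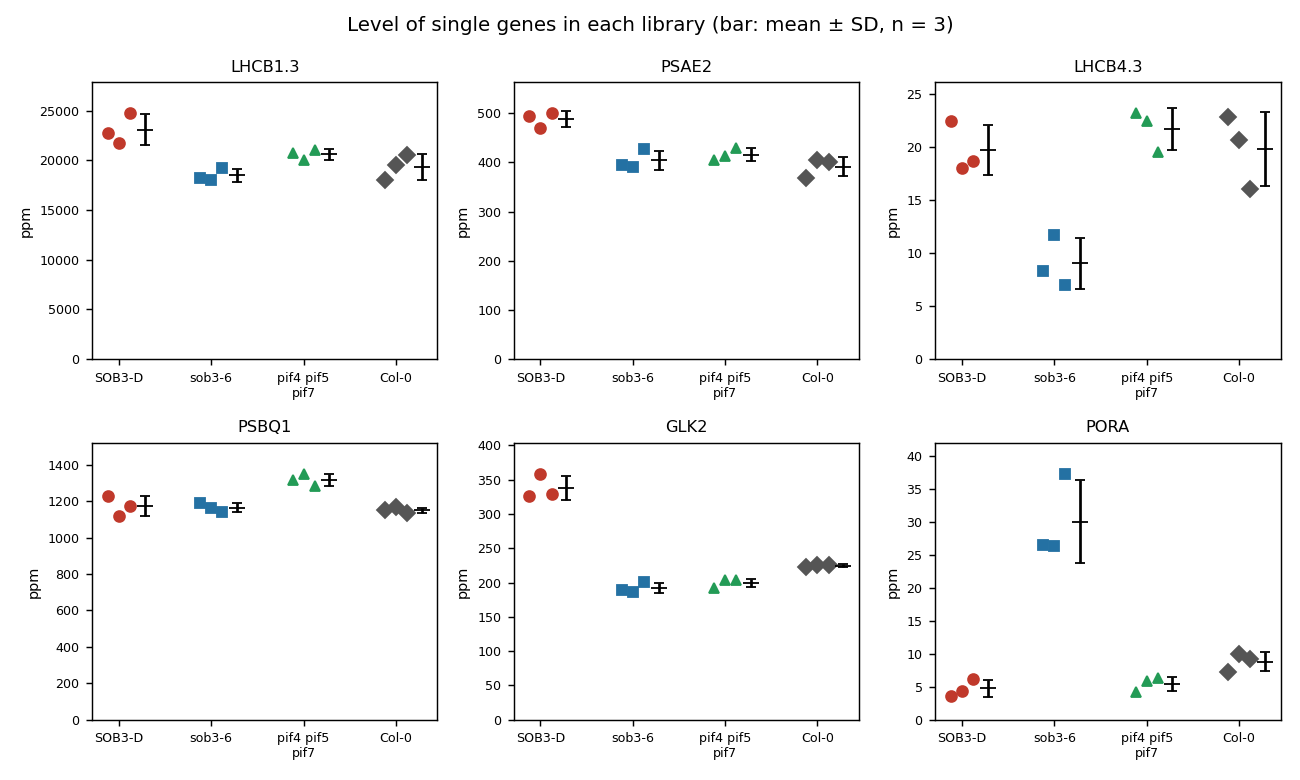
Level in ppm of 6 genes in each library, with the mean and SD of the 3 libraries of a genotype as a bar beside the points. LHCB1.3, PSAE2 and GLK2 are highest in SOB3-D, PSBQ1 is highest in pif4 pif5 pif7, and in sob3-6 LHCB4.3 is lowest and PORA highest.

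Between the lines that both carry abundant SOB3 transcript, 1 of the 41 genes was higher and 21 were lower in sob3-6 than in SOB3-D, against 24.8% and 10.9% of all tested genes. After median-of-ratios scaling 0 were higher and 30 lower, against 14.3% and 15.7%. The 21 genes called lower with the ppm as deposited were all called lower after scaling. At an unadjusted p under 0.05 limma gave 0 higher genes after scaling, and edgeR and DESeq2 called 0 higher and 29 and 30 lower. Of all 18502 genes edgeR called 2362 higher and 2722 lower, and DESeq2 called 1649 and 2189. The median log2 change was -0.11, against 0.09 over all genes, and -0.19 against 0.01 after scaling. The 3 sob3-6 libraries lay below all 3 of SOB3-D for 21 of the 41 genes and above for 1, against 13.2% and 30.9% of all genes. After scaling they lay below for 31 and above for 0, against 19.9% and 19.8%. Quantile normalization called 3 higher and 2 lower, where 30.1% of all genes were called in either direction. This comparison uses the same SOB3-D libraries as that with Col-0, so the values of the 2 are not independent.

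All 4 abundant LHCA genes were lower in sob3-6 than in SOB3-D. LHCA4 was at 6369, 6281 and 6374 ppm in sob3-6, against 7704, 7177 and 7709 ppm in SOB3-D, and fell by 0.25 (adjusted p = 1.2e-05). LHCA1 and LHCA2 fell by 0.18 each and LHCA3 by 0.10 (adjusted p = 0.035). LHCA6 was the 1 gene called higher, with 198.8, 190.4 and 176.7 ppm in sob3-6 and 164.8, 173.2 and 164.3 ppm in SOB3-D. Its log2 change was 0.17 (adjusted p = 0.0093), and 0.09 after scaling (adjusted p = 0.22).

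Of the 14 LHCB genes 10 fell (12 after scaling), against 10.9% of all genes (15.7% after scaling). LHCB1.3 was at 18256, 17999 and 19180 ppm in sob3-6, against 22712, 21692 and 24742 ppm in SOB3-D, and fell by 0.32 (adjusted p = 1.6e-05). LHCB1.5 fell by 0.32, LHCB1.2 by 0.26, LHCB4.2 by 0.23, LHCB1.1 by 0.17, LHCB2.1 by 0.15, LHCB2.2 by 0.14, LHCB6 by 0.13 and LHCB4.1 by 0.10. LHCB4.3 was at 22.39, 18.02 and 18.70 ppm in SOB3-D, all above the sob3-6 values given before, and fell by 1.07 in sob3-6 (adjusted p = 0.00044). LHCB3 and LHCB5 were called lower after scaling, at -0.19 and -0.15, and LHCB1.4 and LHCB2.4 were not called.

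The core counts that follow stand against the same 10.9% of all genes (15.7% after scaling). In the cores 3 of 12 PSA genes fell (8 after scaling), PSAE2 by 0.27 (adjusted p = 3.4e-05), PSAG by 0.12 and PSAO by 0.11. Of 9 PSB genes 4 fell (6 after scaling), PSBP1 by 0.21 (adjusted p = 2.4e-05), PSBR by 0.18, PSBO1 by 0.15 and PSBO2 by 0.10. PSBP1 was at 4321, 4307 and 4338 ppm in sob3-6, against 4995, 4951 and 5083 ppm in SOB3-D. The count of lower genes was 16 to 25 when each of the 12 libraries was left out in turn, and 27 to 32 after scaling.

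The sums of the families give the same comparison on 1 value per library. The 41 genes summed to 182079, 174991 and 188398 ppm in SOB3-D, 161393, 159209 and 164249 ppm in sob3-6, 167516, 165679 and 169271 ppm in pif4 pif5 pif7, and 154450, 166412 and 167920 ppm in Col-0. SOB3-D lay above every other library and both sob3-6 and pif4 pif5 pif7 overlapped Col-0. After scaling the sums were 183584, 176866 and 191850 in SOB3-D, 155092, 152206 and 156009 in sob3-6, 173632, 169816 and 173601 in pif4 pif5 pif7, and 153547, 167400 and 167775 in Col-0. Then pif4 pif5 pif7 also lay above Col-0, while sob3-6 still overlapped it.

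Ratios between members are free of any scaling factor, and 14 were computed in the 4 comparisons, chosen with the values of the members known. With 3 libraries against 3, the exact two-sided permutation test cannot give a p under 0.1, and 24 of the 56 tests reached it. The sum of the LHCA genes over that of the PSA genes was 0.982, 0.948 and 0.992 in SOB3-D, 0.881, 0.868 and 0.876 in sob3-6, 0.957, 0.918 and 0.941 in pif4 pif5 pif7, and 0.876, 0.910 and 0.919 in Col-0. SOB3-D lay above Col-0 and above sob3-6. The sum of the PSB genes over that of the PSA genes averaged 1.04 ± 0.00667 in SOB3-D, 0.970 ± 0.0131 in sob3-6, 1.00 ± 0.0130 in pif4 pif5 pif7 and 0.983 ± 0.00584 in Col-0 (SD, n = 3 each), with SOB3-D and pif4 pif5 pif7 both above Col-0 without overlap. The sum of the LHCB genes over that of the PSB genes averaged 4.14 ± 0.301 in SOB3-D and 3.88 ± 0.142 in Col-0 and overlapped (exact permutation p = 0.3).

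**Figure D5:**
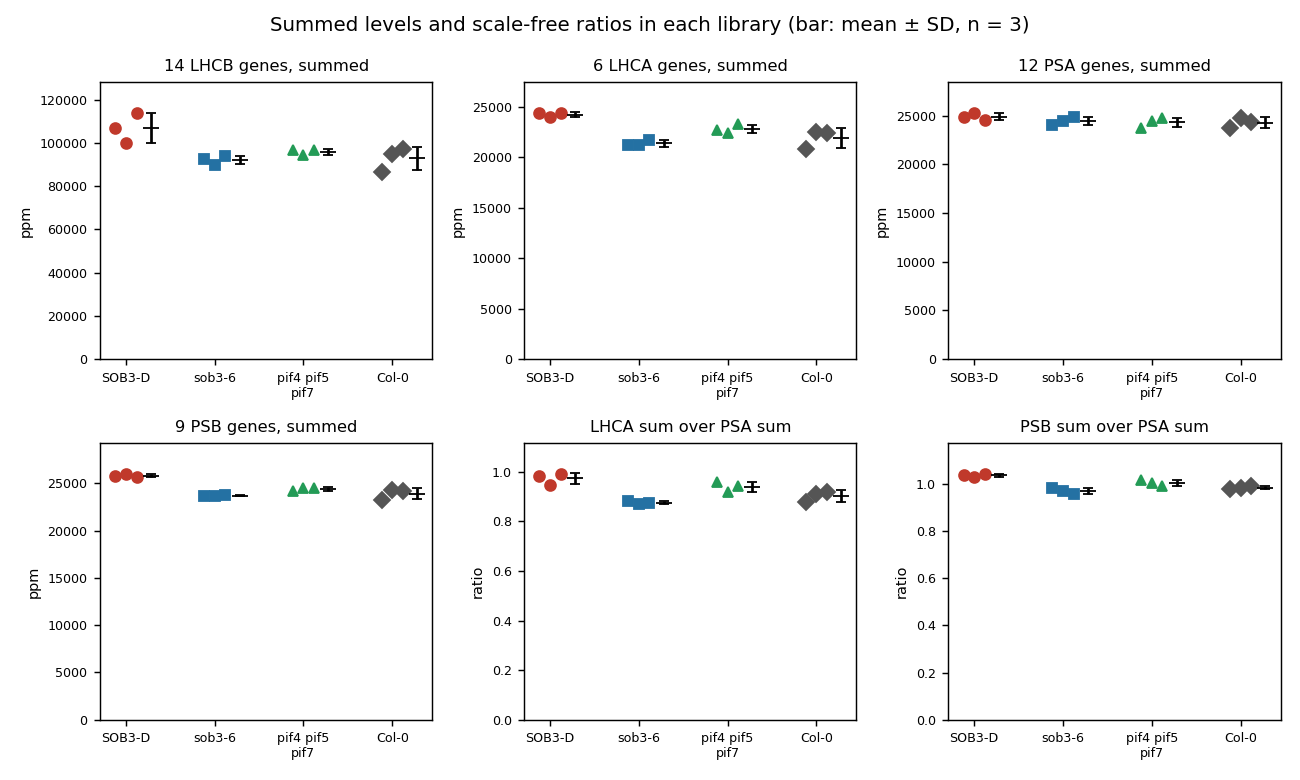
Summed ppm of the 14 LHCB, 6 LHCA, 12 PSA and 9 PSB genes and 2 ratios of sums in each library, with the mean and SD of 3 libraries beside the points and all axes starting at 0. The 3 SOB3-D libraries lie above those of Col-0 in the sums of LHCB, LHCA and PSB genes and in both ratios, and overlap them in the sum of PSA genes.

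The ratio of PSAE2 to PSAE1 and of some other pairs for the same subunit differed between genotypes without overlap. PSAE2 over PSAE1 was 0.261, 0.245 and 0.260 in SOB3-D, against 0.204, 0.214 and 0.209 in Col-0. PSBQ1 over PSBQ2 was 0.751, 0.751 and 0.703 in pif4 pif5 pif7, against 0.622, 0.613 and 0.598 in Col-0. PSAH2 over PSAH1 was 1.49, 1.46 and 1.45 in SOB3-D, 1.61, 1.59 and 1.63 in sob3-6, 1.43, 1.45 and 1.38 in pif4 pif5 pif7, and 1.50, 1.49 and 1.50 in Col-0. None of the 3 lines overlapped Col-0 in that ratio, and sob3-6 was above it while the others were below, although the nearest libraries of SOB3-D and Col-0 were only at 1.4919 and 1.4925. LHCB4.2 over LHCB4.1 averaged 0.729 ± 0.00307 in SOB3-D, 0.665 ± 0.0184 in sob3-6, 0.646 ± 0.00233 in pif4 pif5 pif7 and 0.684 ± 0.00528 in Col-0 (SD, n = 3 each), and sob3-6 overlapped Col-0. PSBO1 over PSBO2 averaged 3.17 ± 0.0654 in SOB3-D and 2.96 ± 0.119 in Col-0 without overlap. PSAD1 over PSAD2 lay between 2.07 and 2.22 in all 12 libraries and overlapped in all 4 comparisons.

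Other genes of photosynthesis were read from lists chosen with earlier results of these data known. Their counts stand against the shares of all tested genes given above, with the ppm as deposited 11.6% higher and 14.9% lower in SOB3-D, 9.43% and 3.95% in sob3-6, 1.50% and 4.83% in pif4 pif5 pif7, and 24.8% and 10.9% in sob3-6 against SOB3-D. Among 8 regulators and antenna insertion factors, GLK2, a transcription factor of chloroplast development, was at 326.0, 358.3 and 328.6 ppm in SOB3-D, 188.8, 186.6 and 200.7 ppm in sob3-6, 192.3, 203.1 and 203.0 ppm in pif4 pif5 pif7, and 222.3, 225.9 and 226.0 ppm in Col-0. It rose by 0.58 in SOB3-D (adjusted p = 5.9e-11) and fell by 0.23 in sob3-6 (adjusted p = 0.0013). It also fell by 0.17 in pif4 pif5 pif7 (adjusted p = 0.022), which was not called after scaling (-0.13, adjusted p = 0.094).

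GNL, a GATA factor of greening, rose by 0.46 in SOB3-D (adjusted p = 0.0011) and fell by 0.93 in sob3-6 (adjusted p = 1.4e-07), and in sob3-6 ALB3, an insertase of the thylakoid membrane, fell by 0.18 (adjusted p = 0.0075). GLK1 fell by 0.34 in pif4 pif5 pif7 (adjusted p = 0.0058). Of the 8, 2 were called in SOB3-D, both higher, 3 in sob3-6, all lower, and 2 in pif4 pif5 pif7, both lower, with median log2 changes of 0.11, -0.04 and -0.03. After scaling 2 were higher in SOB3-D, 3 lower in sob3-6, and 1 higher (GNL, 0.35) and 1 lower in pif4 pif5 pif7. Between sob3-6 and SOB3-D, GLK2 fell by 0.81 and GNL by 1.39, and cpSRP54, which escorts antenna proteins in the stroma, rose by 0.23 (adjusted p = 0.00037).

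Of 10 accessory genes of the photosystems 3 rose and 1 fell in SOB3-D, 1 rose and 2 fell in sob3-6, and 3 rose and 1 fell in pif4 pif5 pif7, with median log2 changes of -0.01, -0.06 and 0.06. After scaling 4 rose and 1 fell in SOB3-D, 1 rose and 5 fell in sob3-6, and 3 rose and 1 fell in pif4 pif5 pif7. PSBP2, a low-level relative of PSBP1, fell by 0.57 in SOB3-D (adjusted p = 0.00040), rose by 0.72 in sob3-6 (adjusted p = 6.0e-05) and fell by 0.44 in pif4 pif5 pif7 (adjusted p = 0.017), with 5.04 ± 0.514, 13.8 ± 1.12 and 5.58 ± 0.562 ppm in these lines and 7.96 ± 0.882 ppm in Col-0 (SD, n = 3 each). CURT1A, which bends thylakoid membranes, rose by 0.22 in SOB3-D (adjusted p = 0.00098) and by 0.21 in pif4 pif5 pif7 (adjusted p = 0.0066). TAP38, a phosphatase that reverses antenna phosphorylation, rose by 0.19 in SOB3-D (adjusted p = 0.0049). PSBS, the sensor for heat dissipation, rose by 0.16 in pif4 pif5 pif7 (adjusted p = 0.013) and PSB28 by 0.26 (adjusted p = 0.00039). In sob3-6 PSB27, an assembly factor of photosystem II, fell by 0.24 (adjusted p = 0.00030) and LHCB7, a rare antenna relative, by 0.40 (adjusted p = 0.0030). Against SOB3-D, 1 of the 10 rose and 6 fell in sob3-6, with PSBP2 up by 1.29, PSBS down with a log2 change of -0.23 and TAP38 with -0.23.

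Of 13 genes of electron transport and the ATP synthase 2 were called in SOB3-D, both lower, 1 rose and 1 fell in sob3-6, and 4 were called in pif4 pif5 pif7, all higher, with median log2 changes of -0.02, -0.05 and 0.08. The 2 lower genes in SOB3-D are a share of the list near the 14.9% of all genes called lower there. After scaling 0 were higher and 2 lower in SOB3-D, 0 higher and 4 lower in sob3-6, and 4 higher and 0 lower in pif4 pif5 pif7, so the balance in sob3-6 depended on the scaling. Without adjustment, at p under 0.05, 4 of the 13 were lower in sob3-6 as deposited and 9 after scaling, with 1 higher under either. In pif4 pif5 pif7 6 were higher as deposited and 10 after scaling. No share of all genes was computed at that cutoff. FD1, a minor leaf ferredoxin, fell by 0.45 in sob3-6 (adjusted p = 1.5e-06) and rose by 0.21 in pif4 pif5 pif7 (adjusted p = 0.018). In pif4 pif5 pif7 PETC, the Rieske protein, rose by 0.17 (adjusted p = 0.012) and FD2, the major leaf ferredoxin, by 0.24 (adjusted p = 0.039). LFNR2 fell by 0.20 (adjusted p = 0.0030) and PETM by 0.22 (adjusted p = 0.028) in SOB3-D, and PETE1, a plastocyanin, rose by 0.18 in sob3-6 (adjusted p = 0.0030), which was not called after scaling. Between sob3-6 and SOB3-D 2 rose and 4 fell (0 and 5 after scaling), with log2 changes of -0.39 for FD1, 0.17 for PETE1 and -0.14 for PETE2, the other plastocyanin.

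Of 16 genes of chlorophyll synthesis 3 were called in SOB3-D, all lower, and 2 rose and 1 fell in sob3-6, with median log2 changes of -0.06 and 0.02. The 3 lower genes in SOB3-D are 18.8% of the list, near the 14.9% of all genes called lower there. After scaling 1 rose and 3 fell in SOB3-D and 1 rose and 3 fell in sob3-6. Without adjustment, at p under 0.05, 6 were higher and 3 lower in sob3-6 as deposited, and 2 higher and 4 lower after scaling, so the balance there turned with the scaling. In pif4 pif5 pif7 limma called 0 of the 16 as deposited and called 2 higher and 0 lower after scaling. At an unadjusted p under 0.05 the counts there were 2 higher and 1 lower as deposited, and 7 higher and 1 lower after scaling. No share of all genes was computed for these unadjusted counts. PORA, the protochlorophyllide reductase of etiolated seedlings, was at 3.67, 4.39 and 6.19 ppm in SOB3-D, 26.4, 26.4 and 37.3 ppm in sob3-6, 4.22, 5.84 and 6.30 ppm in pif4 pif5 pif7, and 7.22, 10.04 and 9.18 ppm in Col-0. It fell by 0.78 in SOB3-D (adjusted p = 0.0058) and rose by 1.66 in sob3-6 (adjusted p = 3.7e-05), the opposite order to GLK2 and GNL. FLU, a negative regulator of the pathway, fell by 0.25 in SOB3-D (adjusted p = 0.00019) and CHLI2 by 0.16 (adjusted p = 0.018). In sob3-6 HEMA1, an early enzyme of the pathway, fell by 0.27 (adjusted p = 0.0076) and CHLD rose by 0.14 (adjusted p = 0.019), the rise not called after scaling. Against SOB3-D 7 of the 16 were called in sob3-6, all higher, with PORA higher by 2.44, FLU by 0.23 and CHLD by 0.21, and after scaling 3 rose and 4 fell.

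Leaf transcripts outside the photosystems were read as well. Of the 6 leaf marker genes 1 was called in SOB3-D, lower, a share near the 14.9% of all genes called lower there. In sob3-6 3 were called, all lower (5 after scaling), and in pif4 pif5 pif7 3 were called, all higher. Between sob3-6 and SOB3-D 4 of the 6 were called lower with the ppm as deposited and 6 after scaling, so they moved in the same direction there as the photosystem genes. Without adjustment, 5 were lower at p under 0.05 in that comparison as deposited and 6 after scaling. In pif4 pif5 pif7 4 were higher as deposited and 6 after scaling. Here too no share of all genes was computed. Their sum was 47198 to 49605 ppm in SOB3-D, 42636 to 45946 ppm in sob3-6, 53994 to 56428 ppm in pif4 pif5 pif7 and 48395 to 50859 ppm in Col-0. Their part in the results above was not tested. RCA, the activase of Rubisco, fell by 0.16 in SOB3-D (adjusted p = 0.0031) and by 0.32 in sob3-6 (adjusted p = 1.8e-06). RBCS3B and RBCS1A, genes of the small Rubisco subunit, rose in pif4 pif5 pif7 by 0.21 and 0.15 (adjusted p = 0.0022 and 0.0083).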

How the data were processed

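Levels of transcripts were measured by RNA-seq in 12 libraries of 4 genotypes with 3 libraries each. Poly(A) libraries came from a kit that keeps strand, after on-column DNase treatment, per the labels' protocols. bcl2fastq, Bowtie 1.2.1 and the TAIR10 genome are named in the submitters' processing notes, while no source used here names the counting tool. The deposited signal, in ppm of mapped tags as the labels state, covers 32950 transcripts of 25089 loci. The signal of a library sums to between 1599902 and 1626178, more than ppm allows, as when a read counts in every transcript it matches. Within 0.01 reads, 100% of values were whole multiples of 1 read, so whole reads were recovered. By counting error alone, a 0 could hide 3 reads (0.187 to 0.393 ppm).

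The filter kept 25710 transcripts (18502 genes) that reached 1 ppm in at least 3 of 12 libraries. limma 3.58.1 in R 4.3.3 was fitted to log2(ppm + 1) over all 12 libraries with 1 coefficient per genotype, trend and robust options on (residual degrees of freedom 8, prior median 21.3). Tests were two-sided with Benjamini-Hochberg adjustment over all kept transcripts. Simulated reads with changes in SOB3-D only were used to test the limma fit without scaling and the recovery of median-of-ratios factors. The other steps were not tested on simulated data. Alternatives were median-of-ratios scaling, quantile normalization, pseudocounts of 0.1 and 5, no filter, 2 genotypes alone, a replicate block, leaving out each library, and edgeR 4.0.16 and DESeq2 1.42.0 on the recovered reads. Scaling combined with a left-out library or the block, and the ratios between members, were added after seeing the data. Ratios were tested with scipy 1.17.1.

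The members and lists were chosen with earlier results of these data known. Genes were named where called in the same direction under both scalings in at least 1 comparison, where among the 3 lowest p of a comparison, as pairs for 1 subunit, as LHCB1 or LHCB4 genes, as LHCA5 or LHCA6, and, in other lists with at least 2 calls, as the 3 lowest p. Gene positions and sequences are from RefSeq TAIR10.1, which held all 41 loci. The files hold no coordinates. Replicate files differed by more than sampling noise.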

Additional observations from a re-analysis of the deposited data

How the results depend on the processing

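Of the members named with values, PSAE2, LHCB4.2 and LHCB1.5 in SOB3-D, LHCB4.3 in sob3-6 and PSBQ1 in pif4 pif5 pif7 kept their direction and their call under all 22 alternatives. Other pseudocounts, no filter and 2 genotypes alone changed no count by over 1.5 times. Median-of-ratios scaling gave 4 lower genes in sob3-6, 3 higher in pif4 pif5 pif7 and 0 higher in sob3-6 against SOB3-D. edgeR gave 4, 3 and 0 for these, and DESeq2 4, 2 and 0. Quantile normalization gives the n-th highest value of each library the same level, and the members hold top ranks. It gave 8 higher and 1 lower in SOB3-D, 7 higher in sob3-6, 2 higher and 1 lower in pif4 pif5 pif7, and 3 higher and 2 lower in sob3-6 against SOB3-D. It reversed LHCB5 (-0.16) and PSBO1 (-0.0041) in SOB3-D and LHCB1.5 (0.22) in sob3-6 against Col-0, and LHCA1 (0.017), LHCA3 (0.020), LHCB2.2 (0.0012), LHCB4.1 (0.027) and PSBQ1 (0.16) in sob3-6 against SOB3-D. Same-numbered libraries of different genotypes deviated together with r of -0.04 to 0.13, and differently numbered ones with r of -0.16 to 0.09. These values do not settle whether the numbers pair the libraries. A replicate block raised the genes called among all tested from 4887 to 5333 in SOB3-D, 2475 to 2923 in sob3-6 and 1171 to 1721 in pif4 pif5 pif7. With a replicate block 2 genes were lower in sob3-6, 2 higher in pif4 pif5 pif7 and 2 higher in sob3-6 against SOB3-D, and with block and scaling 9, 7 and 0, with 32 lower in the last. Leaving out each library gave, with the ppm as deposited and after scaling, 12 to 21 and 14 to 22 higher in SOB3-D, 1 to 2 and 1 to 9 lower in sob3-6, 1 to 2 and 1 to 7 higher in pif4 pif5 pif7, and 16 to 25 and 27 to 32 lower with 1 to 4 and 0 higher in sob3-6 against SOB3-D. Counts of 0 elsewhere stayed 0. The scaled count was 5 lower in sob3-6 without SOB3-D replicate 3 and 5 higher in pif4 pif5 pif7 without Col-0 replicate 2. SOB3-D libraries were the shallowest. LHCB4.3 had the fewest reads of the 41 genes and the least precision, with 160 to 171 reads in SOB3-D and only 88 to 119 in sob3-6.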
